A study of Mus musculus with 27 samples.

Results

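The teneurins (Tenm1, Tenm2, Tenm3 and Tenm4) and the fibronectin leucine-rich transmembrane proteins (Flrt1, Flrt2 and Flrt3) were followed across the retina and the brain regions that receive its axons. Members were taken by gene symbol, and the estimated counts of their transcripts were summed per gene, which gave 7 genes with 39 transcripts among 30735 genes with 88198 transcripts. All 7 had enough counts to be tested in the retina and in the brain.

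The series holds 27 RNA libraries, all of the strain C57Bl/6. Brn3a (Pou4f1) and Brn3b (Pou4f2) are transcription factors of retinal ganglion cells, the output neurons of the eye, and the mice carried alkaline phosphatase (AP) at one of these loci. Beads with an anti-AP antibody bound the cells that display AP, and the cells left in suspension were kept as the unbound fraction. HET stands for the genotypes Brn3aAP/WT and Brn3bAP/WT, and KO for Brn3aAP/KO and Brn3bAP/KO, so that every retinal library, the HET controls included, carries an AP allele. At postnatal day 3 (P3) the AP-positive cells were Brn3a HET, Brn3a KO, Brn3b HET or Brn3b KO, and at embryonic day 15 (E15) they were Brn3b HET or Brn3b KO; each of these 6 groups holds 2 libraries. There is 1 unbound library per group, and these were pooled within an age over genotypes (4 at P3, 2 at E15). Wild-type P3 brain gave 3 libraries of the superior colliculus (SC), 3 of the lateral geniculate nucleus (LGN), 1 of the pretectal area and 2 of the brain sections that remained after dissection, all from eyes injected with cholera toxin B as an axon tracer. Separate animals or cultures behind the libraries of a group are not stated, so p-values measure only the spread between libraries, which may be technical. The study's design sets these groups side by side to relate the molecules of Brn3 ganglion cells to those of their target regions.

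Teneurins are large transmembrane proteins that bind one another and the latrophilins across the cleft between cells, and Tenm3 is known for its part in matching retinal axons to their places in the LGN and SC. FLRT proteins are smaller cell surface proteins with leucine-rich repeats. They bind latrophilins as adhesion partners and receptors of the Unc5 family as repellents, and they also bind the fibroblast growth factor receptor Fgfr1 and the guidance receptor Robo1. Dag1, or dystroglycan, is a further surface protein that can bind teneurin fragments. These partners form a list of 10 genes here: the latrophilins Lphn1, Lphn2 and Lphn3 (also called Adgrl1, Adgrl2 and Adgrl3), Unc5a, Unc5b, Unc5c, Unc5d, Fgfr1, Robo1 and Dag1.

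In the deposited annotation (GRCm38), Tenm1 (ENSMUSG00000016150) lies on chromosome X at 42527866 to 43429126 on the minus strand. Tenm2 (ENSMUSG00000049336) lies on chromosome 11 at 36006656 to 37235964, minus strand, and Tenm3 (ENSMUSG00000031561) on chromosome 8 at 48227682 to 48844026, minus strand. Tenm4 (ENSMUSG00000048078) occupies 96171244 to 96911093 on the plus strand of chromosome 7. Flrt1 (ENSMUSG00000047787; chromosome 19, 7092014 to 7105729, minus strand) lies inside Macrod1, and Flrt3 (ENSMUSG00000051379; chromosome 2, 140650914 to 140671469, minus strand) inside the span of Macrod2, both hosts being on the opposite strand. Flrt2 (ENSMUSG00000047414) lies on chromosome 12 at 95692226 to 95785215, plus strand. The libraries mark strand, but whether counting used it is not given in the sources used here, so reads of Flrt1 or Flrt3 and of the opposite host gene may not be separated.

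The 250 bases before the RefSeq start (GRCm38.p6, 5′ to 3′ on the gene's strand) are printed for Tenm3, which holds the motif described here, and for Flrt2 and Flrt3, on which the comparison of the Brn3a with the Brn3b population turns. Capitals mark TAATTAAT, the core of the site known for the Brn3 class of POU proteins, searched on both strands (reverse complement ATTAATTA). The stretches lie at chr8:48674691-48674940 (minus strand) for Tenm3, chr12:95691976-95692225 (plus) for Flrt2 and chr2:140671477-140671726 (minus) for Flrt3.
Tenm3: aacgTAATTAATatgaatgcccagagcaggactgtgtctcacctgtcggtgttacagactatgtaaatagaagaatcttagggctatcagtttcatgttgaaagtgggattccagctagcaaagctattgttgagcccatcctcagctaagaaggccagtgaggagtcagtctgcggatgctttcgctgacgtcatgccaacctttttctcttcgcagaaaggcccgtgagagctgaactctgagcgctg
Flrt2: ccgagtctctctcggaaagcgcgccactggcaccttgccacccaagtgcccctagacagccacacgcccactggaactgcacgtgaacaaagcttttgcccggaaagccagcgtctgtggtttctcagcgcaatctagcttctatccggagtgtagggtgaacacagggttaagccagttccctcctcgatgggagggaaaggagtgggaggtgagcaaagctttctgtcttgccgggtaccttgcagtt
Flrt3: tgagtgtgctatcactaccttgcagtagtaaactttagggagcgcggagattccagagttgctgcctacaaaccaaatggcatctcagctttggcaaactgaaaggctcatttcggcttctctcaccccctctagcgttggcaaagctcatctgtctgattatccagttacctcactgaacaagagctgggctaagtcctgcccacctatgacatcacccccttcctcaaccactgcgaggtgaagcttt
The motif starts 246 bases before the Tenm3 start and was not found in the other 6 member stretches in the RefSeq table, which holds 7 stretches of 6 members (Tenm4 has 2; Flrt1 was not matched). Each stretch belongs to 1 annotated start, and members have others: the Tenm1 stretch lies before Tenm1-201, which held at most 3.99% of Tenm1 by TPM in a retinal library and is not printed, and that of Tenm3 before Tenm3-201, which held 0.16% to 41.5% of Tenm3. The Tenm2 stretch lies near the start of Tenm2-002, with at most 10.1% of Tenm2 in a retinal library, while Tenm2-001 held 68.3% to 95.5%. Those of Tenm4 lie before Tenm4-001 and Tenm4-010, while Tenm4-009 held 47.8% to 67.4% in the retina. The bases before Tenm2-001 and Tenm4-009 were not searched. The motif was in 259 of all 32851 stretches of this length (0.79%). A match of letters is a description and does not show binding.

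Retinal libraries held 28905675 to 37394655 estimated counts and brain libraries 10122962 to 13769685, and retina and brain were read on different instruments and were not tested against each other. The targeted genes followed the titles: Pou4f1 was at 486 and 444 CPM (counts scaled to library size) in Brn3a HET AP-positive libraries and at 16.7 and 10.98 in Brn3a KO. Pou4f2 in Brn3b KO was 21.0 and 18.6 CPM at P3, below HET at 190 and 289, and 65.7 and 63.1 CPM at E15, below HET at 325 and 224. The genotype entry of Brn3a KO AP-positive replicate 2 names Brn3b while its title names Brn3a, and the title was used. The 10 ganglion cell markers summed to 3143 to 7940 CPM in AP-positive P3 HET libraries and to 458 to 1018 CPM in the unbound P3 libraries. Markers of microglia and macrophages (10 genes) summed to 2197 to 3472 CPM in the same AP-positive libraries and to 2.14 to 22.3 CPM in the unbound ones, so microglial RNA was also abundant in the bead-bound fraction. In such bulk samples, fewer cells of a type and less RNA per cell cannot be told apart.

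All 4 teneurins were higher in the AP-positive fraction than in the unbound cells at P3, for Brn3a HET and for Brn3b HET. Among the FLRT genes, Flrt2 was higher and Flrt3 lower in Brn3a HET AP-positive cells than in the pooled unbound libraries, and none was called for Brn3b HET. Against the unbound libraries of its own line, Flrt3 was lower in both populations, a difference that was not tested. A call here is an adjusted p under 0.05 in edgeR's quasi-likelihood test (Benjamini-Hochberg over all genes tested), fold changes are log2, and each value after ± is the standard error of the fit. For Brn3a HET against unbound, 6 of 7 members were called, 5 higher and 1 lower, where 56.5% of all genes tested were called (28.8% higher, 27.7% lower). For Brn3b HET, 4 of 7 were called, all higher, where 33.2% of all genes were (19.6% higher, 13.6% lower). The median over the 7 members was 1.34 and 0.82, beside -0.03 and 0.02 over all genes tested. Both comparisons use the same 4 unbound libraries.

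Tenm2 was at 125 and 95.4 CPM in the Brn3a HET AP-positive libraries, at 42.3 and 69.9 CPM in those of Brn3b HET, and between 23.1 and 30.5 CPM in the unbound P3 libraries (23.1, 25.6, 29.2 and 30.5). No AP-positive HET library overlapped the unbound ones. The difference from unbound was 2.03 ± 0.25 for Brn3a HET (adjusted p = 1.2e-05) and 1.05 ± 0.25 for Brn3b HET (adjusted p = 0.00534). Tenm1 was at 53.3 and 40.2 CPM in Brn3a HET, 27.0 and 41.3 in Brn3b HET, and 10.7 to 15.5 in the 4 unbound libraries, again without overlap. It rose by 1.87 ± 0.25 (adjusted p = 3e-05) and 1.41 ± 0.25 (adjusted p = 0.00083).

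Tenm3, at 194 and 186 CPM in Brn3a HET and 129 and 206 in Brn3b HET, stood above all 4 unbound libraries (59.0, 69.5, 71.7 and 84.7 CPM). The differences were 1.42 ± 0.21 (adjusted p = 6.9e-05) and 1.23 ± 0.21 (adjusted p = 0.000609). Tenm4 was at 214 and 167 CPM in Brn3a HET, at 103 and 163 in Brn3b HET and at 64.0 to 88.1 in the unbound libraries, also without overlap. It rose by 1.34 ± 0.20 (adjusted p = 8.4e-05) and 0.82 ± 0.21 (adjusted p = 0.00758). The lower Brn3b HET library was replicate 1 for each teneurin. Ganglion cell markers summed to 3143 CPM in 1 Brn3b HET library and 4537 CPM in the other. Replicate 1 was the lower in Rbpms (218 against 353 CPM) and Nefl (835 against 1160 CPM), and the part of ganglion cell content was not tested. All 4 teneurins are at least 8000 bases long. Other genes of that length, counted without the members, took 5.56% of the counts in Brn3b HET replicate 1 and 6.62% in replicate 2. These were the lowest and the highest share of the P3 AP-positive libraries, and the unbound P3 libraries had 5.51% to 6.2%. Of these long genes 36.7% were called higher and 33.9% lower for Brn3a HET, and 28.7% higher and 13.3% lower for Brn3b HET. Their median log2 fold change was 0.031 and 0.096, and the part of gene length in the teneurin values was not tested. Without Brn3b HET replicate 2 the Brn3b differences were 0.61 for Tenm2 (adjusted p = 0.184) and 0.42 for Tenm4 (adjusted p = 0.266), no longer called.

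Flrt2 was at 81.9 and 79.2 CPM in Brn3a HET, 24.5 and 38.3 in Brn3b HET, and 34.4, 39.2, 39.9 and 43.8 in the unbound P3 libraries. The Brn3a libraries lay above every unbound one (1.03 ± 0.17, adjusted p = 0.00017), while the Brn3b libraries overlapped them (-0.32 ± 0.18, adjusted p = 0.188; -0.72 and adjusted p = 0.0309 without Brn3b HET replicate 2). Flrt3 ran the other way, at 9.83 and 8.72 CPM in Brn3a HET, below all unbound libraries at 15.7, 16.7, 26.7 and 29.4 (-1.25 ± 0.23, adjusted p = 0.000427). In Brn3b HET it was at 16.6 and 16.1 CPM, within the unbound range (-0.44 ± 0.22, adjusted p = 0.152). That value was called without the Brn3a HET unbound library (-0.63, adjusted p = 0.029) or the Brn3a KO unbound library (-0.60, adjusted p = 0.0478). Both Brn3a unbound libraries held less Flrt3 (15.7 and 16.7 CPM) than both Brn3b ones (29.4 and 26.7 CPM). Each AP-positive HET population thus lay below the unbound libraries of its own line, so the contrast between populations depends on the pooling. Flrt1 was at 16.8 and 11.8 CPM in Brn3a HET, 5.88 and 9.50 in Brn3b HET and 6.05 to 10.5 in the unbound libraries. Its difference of 0.87 ± 0.37 for Brn3a HET did not pass (adjusted p = 0.0584; 0.0291 in DESeq2, and 0.0463 without the Brn3b HET unbound library).

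**Figure D1:**
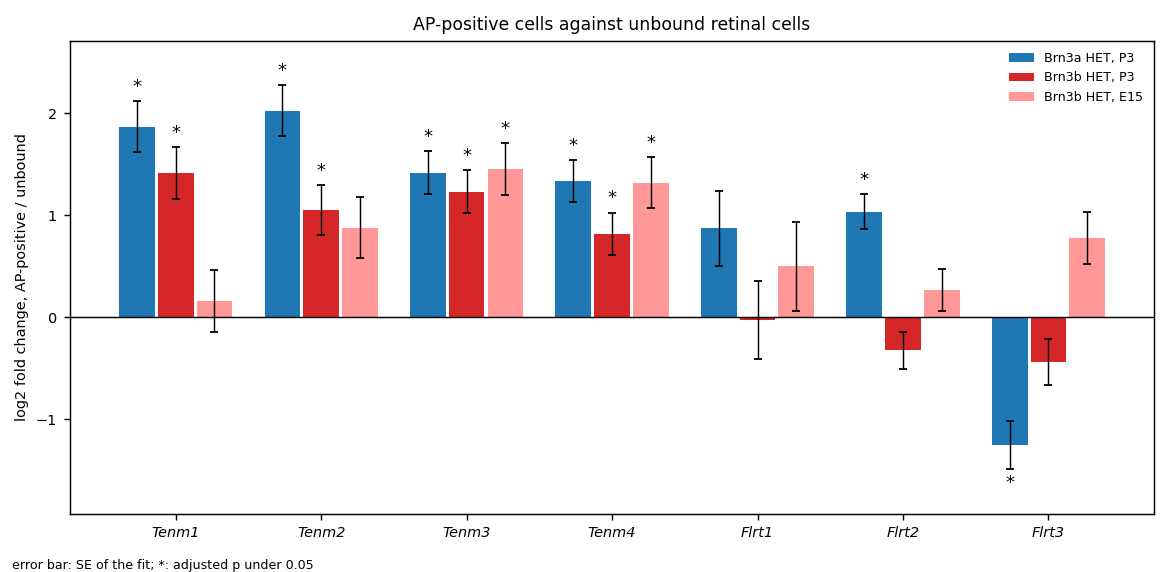
Log2 fold change (vertical axis, coloured bars) of each of the 7 members, AP-positive HET against unbound cells, for Brn3a at P3, Brn3b at P3 and Brn3b at E15; error bars are the standard error of the fit and stars mark an adjusted p under 0.05. The teneurin bars point up throughout, and those of Flrt3 point down at P3 and up at E15 (-1.25, -0.44 and 0.78).

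Partner genes were called in both directions in the same contrasts. In Brn3a HET AP-positive cells 2 of 10 partners were higher and 5 lower than in the unbound fraction. Of all genes 56.5% were called there (28.8% higher, 27.7% lower). The latrophilin Lphn1 (411 against 237 CPM on average) rose by 0.80 ± 0.19 and the netrin and FLRT receptor Unc5d (16.2 against 9.31 CPM) by 0.80 ± 0.21. Robo1 (21.2 against 93.0 CPM) fell by 2.13, Fgfr1 (15.5 against 47.0 CPM) by 1.60 and Unc5b (3.41 against 7.63 CPM) by 1.16, with Unc5a and Dag1 the other lower ones. Unc5a was not called without Brn3a HET replicate 1 (adjusted p = 0.158), nor Dag1 without Brn3a HET replicate 2 (adjusted p = 0.157). In Brn3b HET cells Unc5d rose by 1.38 ± 0.20, and Fgfr1 and Robo1 fell by 1.48 and 1.24, while the other 7 partners were not called. These 3 of 10 stand beside 33.2% of all genes called (19.6% higher, 13.6% lower), a similar share. Ganglion cell markers rose in both contrasts (10 of 10), microglial markers rose (10 of 10) and markers of progenitors and Mueller glia fell (10 of 10, summing to 326 to 798 CPM in AP-positive HET and 2439 to 3318 CPM in unbound libraries). Photoreceptor markers were 3 of 6 lower for Brn3a HET and 0 of 6 called for Brn3b HET. They summed to 723 to 735 CPM in Brn3a HET, 2049 to 2730 CPM in Brn3b HET and 2110 to 2486 CPM in unbound libraries. The part of all these lists in the values of members and partners was not tested.

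At E15 Tenm3 and Tenm4 were higher in Brn3b HET AP-positive cells than in unbound cells, 2 of 7 members where 13.2% of all genes were called (9.35% higher, 3.84% lower). Tenm3 stood at 385 and 311 CPM against 99.8 and 155 CPM in the unbound libraries (1.45 ± 0.26, adjusted p = 0.00247), and Tenm4 at 235 and 215 against 73.3 and 107 CPM (1.32 ± 0.25, adjusted p = 0.00374). Neither gene overlapped between the fractions. Flrt3 (63.0 and 50.9 against 33.5 and 33.1 CPM; 0.78 ± 0.25, adjusted p = 0.0575) and Tenm2 (72.6 and 51.2 against 23.4 and 44.1 CPM; 0.88 ± 0.30, adjusted p = 0.0657) did not overlap either but did not pass. DESeq2 called these genes too (adjusted p = 0.0184 and 0.0243), and so did edgeR without Brn3b HET AP-positive replicate 2 (0.94 and adjusted p = 0.0419 for Flrt3, 1.12 and adjusted p = 0.0384 for Tenm2). In a fit of the compared groups alone, Tenm3 was not called (1.49, adjusted p = 0.0512). Tenm2 was also called without the Brn3b KO unbound library (1.42, adjusted p = 0.0109), and Tenm4 was not called without the Brn3b HET unbound library (1.08, adjusted p = 0.068). Tenm1 was at 29.6 and 18.6 CPM in AP-positive and 14.7 and 28.4 CPM in unbound cells, a full overlap (0.16 ± 0.30, adjusted p = 0.756). Its level in the unbound Brn3b KO library was the higher of that pair, as were those of Tenm2, Tenm3, Tenm4, Flrt1 and Flrt2. Of the partners, Unc5d (12.1 against 2.87 CPM; 2.07 ± 0.26), Unc5c (103 against 30.7 CPM; 1.74 ± 0.31) and Lphn1 (285 against 174 CPM; 0.72 ± 0.22) rose and none fell. Lphn1 was not called without Brn3b HET AP-positive replicate 1 (adjusted p = 0.284) or the Brn3b HET unbound library (adjusted p = 0.379), and in a fit of the compared groups alone none of the 3 was (Unc5d adjusted p = 0.0532, Unc5c 0.0531, Lphn1 0.218). The long genes took 6.04% and 6.18% of the counts in the AP-positive HET libraries and 4.36% and 5.28% in the unbound ones. Of them 23.4% were called higher and 2.42% lower. Microglial markers were 10 of 10 higher here as well (736 to 1001 against 1.67 to 5.5 CPM in sum, with 2 of the 10 at 0 in both unbound libraries), ganglion cell markers 7 of 10 higher (3869 to 7093 against 1733 to 2315 CPM) and progenitor markers 0 of 10 called (1389 to 3714 against 4750 to 5830 CPM); the part of gene length and of these cell types was not tested.

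**Figure D2:**
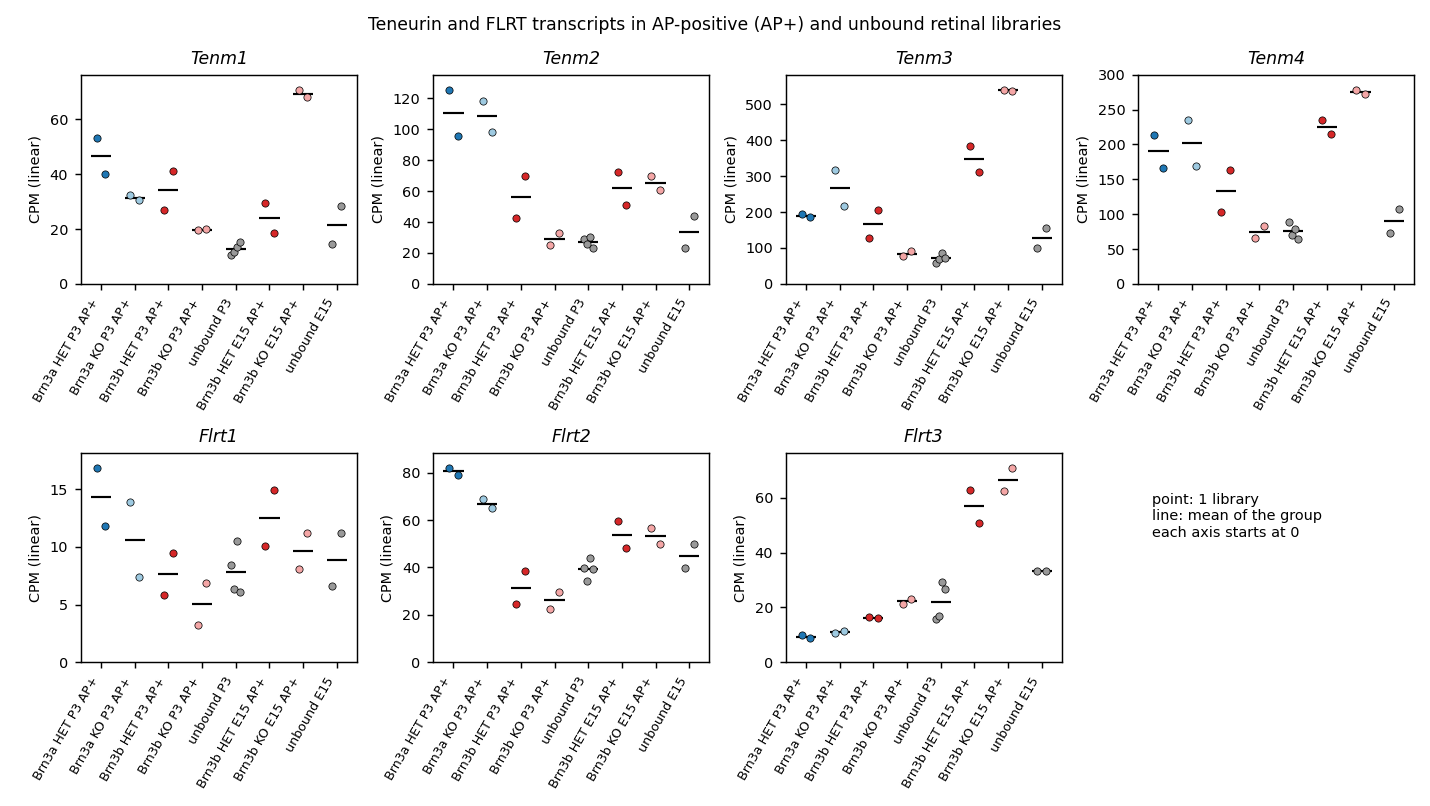
CPM (vertical axis, linear) of each member in every retinal library, 1 panel a gene; points are libraries, and short lines are group means. Tenm3 reaches its highest values in the Brn3b KO libraries at E15 (539 and 537 CPM), and Flrt3 is high at E15 and low in Brn3a AP-positive cells.

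Between E15 and P3, Flrt3, Tenm3, Flrt2 and Tenm4 fell in Brn3b HET AP-positive cells, while Tenm1 and Tenm2 did not pass the test. These 4 of 7 members were lower at P3, where 28.8% of all genes were called (16.6% higher, 12.3% lower). The member median was -0.75, beside 0.01 over all genes. Flrt3 had the lowest P3 to E15 ratio, at 16.6 and 16.1 CPM at P3 against 63.0 and 50.9 at E15 (-1.80 ± 0.16, adjusted p = 0.000133), and was called in 11 of 11 alternatives. Tenm3 was at 129 and 206 CPM at P3 and at 385 and 311 at E15 (-1.05 ± 0.24, adjusted p = 0.0108). Flrt2 was at 24.5 and 38.3 against 59.5 and 48.1 CPM (-0.77 ± 0.22, adjusted p = 0.0267), and Tenm4 at 103 and 163 against 235 and 215 CPM (-0.75 ± 0.24, adjusted p = 0.0422). None of the 4 overlapped between ages. Without Brn3b HET P3 replicate 1 only Flrt3 was still called (Tenm3 -0.75, adjusted p = 0.0639; Flrt2 -0.48, adjusted p = 0.154; Tenm4 -0.46, adjusted p = 0.23). Without Brn3b HET E15 replicate 1 Flrt2 (-0.62, adjusted p = 0.115) and Tenm4 (-0.70, adjusted p = 0.123) were not called, and without E15 replicate 2 Tenm4 was not (adjusted p = 0.088).

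Tenm1 was at 27.0 and 41.3 CPM at P3 against 29.6 and 18.6 at E15, and Tenm2 at 42.3 and 69.9 against 72.6 and 51.2. Both overlapped between ages (0.51 ± 0.26, adjusted p = 0.164; -0.13 ± 0.27, adjusted p = 0.744); Tenm1 was called higher at P3 without E15 replicate 1 (0.88, adjusted p = 0.0471). Flrt1 (5.88 and 9.50 against 10.1 and 15.0 CPM) did not pass (-0.70 ± 0.45, adjusted p = 0.272). Partners moved both ways: the FLRT and netrin receptors Unc5a (28.3 against 10.3 CPM; 1.47 ± 0.27) and Unc5d (24.3 against 12.1 CPM; 1.02 ± 0.25) rose, and Fgfr1 (16.9 against 50.7 CPM), Lphn2 (78.7 against 166 CPM) and Robo1 (39.3 against 61.7 CPM) fell by 1.58, 1.07 and 0.64. Unc5d was not called without P3 replicate 2 (0.71, adjusted p = 0.109) or E15 replicate 2 (0.78, adjusted p = 0.0804), nor Robo1 without E15 replicate 1 (-0.45, adjusted p = 0.188), P3 replicate 1 (adjusted p = 0.133) or P3 replicate 2 (adjusted p = 0.137). Amacrine markers were 6 of 8 higher and 1 lower at P3 (493 to 533 against 150 to 155 CPM in sum). Microglial markers were 10 of 10 higher (2197 to 2657 against 736 to 1001 CPM). Progenitor markers were 5 of 10 lower and 1 higher (544 to 798 against 1389 to 3714 CPM). Photoreceptor markers were 5 of 6 higher (2049 to 2730 against 232 to 336 CPM). The part of these lists was not tested.

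In the unbound fraction Tenm3, Tenm1 and Flrt3 were lower at P3 than at E15 (3 of 7, where 33.1% of all genes were called, 15.6% higher and 17.5% lower). Tenm3 fell by 0.84 (59.0 to 84.7 against 99.8 and 155 CPM; adjusted p = 0.00846), Tenm1 by 0.75 (10.7 to 15.5 against 14.7 and 28.4 CPM, overlapping; adjusted p = 0.0371) and Flrt3 by 0.59 (15.7 to 29.4 against 33.5 and 33.1 CPM; adjusted p = 0.0485). These calls rest on single libraries. Without the Brn3b KO E15 unbound library none of the 3 kept its call (Tenm3 -0.45, adjusted p = 0.195; Tenm1 -0.16, adjusted p = 0.702; Flrt3 -0.56, adjusted p = 0.145), and DESeq2 with all libraries called 3. Without the Brn3a HET P3 unbound library only Tenm3 was called (Tenm1 -0.64, adjusted p = 0.104; Flrt3 -0.42, adjusted p = 0.12), and the same held without the Brn3a KO P3 unbound library (Tenm1 adjusted p = 0.0986, Flrt3 adjusted p = 0.135). Tenm1 was also lost without the Brn3b HET P3 unbound library (adjusted p = 0.076), and Flrt3 without the Brn3b HET E15 one (adjusted p = 0.205). Ganglion cell markers were 7 of 10 lower and 1 higher at P3 in this fraction (458 to 1018 against 1733 to 2315 CPM in sum), amacrine markers 5 of 8 higher and 1 lower (884 to 1047 against 389 to 391 CPM) and photoreceptor markers 5 of 6 higher and 1 lower (2110 to 2486 against 734 to 808 CPM); their part was not tested.

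At P3, 2 members differed by a call between the Brn3b HET and Brn3a HET AP-positive populations, in opposite directions. Flrt2 was lower in Brn3b HET (24.5 and 38.3 against 81.9 and 79.2 CPM; -1.36 ± 0.22, adjusted p = 0.0193) and Flrt3 was higher (16.6 and 16.1 against 9.83 and 8.72 CPM; 0.82 ± 0.16, adjusted p = 0.0315). Neither overlapped, and these 2 of 7 stand beside 3.85% of all genes called (2.03% higher, 1.82% lower). Flrt3 in the unbound P3 libraries differed the same way, at 29.4 and 26.7 CPM for Brn3b against 15.7 and 16.7 CPM for Brn3a, while Flrt2 overlapped there. For Flrt3, a difference between lines or preparations cannot be told apart from one between the captured cells. The Brn3b HET libraries held 42.3 and 69.9 CPM of Tenm2, less than the 125 and 95.4 CPM of Brn3a HET (-0.97 ± 0.27, adjusted p = 0.0626), and was called in DESeq2 (0.00518), with no filter (0.0324) and with only these 2 groups in the fit (0.0444). Tenm4 (103 and 163 against 214 and 167 CPM; -0.51 ± 0.24, adjusted p = 0.189) and Flrt1 (-0.89 ± 0.45, adjusted p = 0.214) also lay below without overlap and did not pass. Tenm1 and Tenm3 overlapped (-0.45, adjusted p = 0.266; -0.18, adjusted p = 0.65).

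Flrt2 was not called without Brn3a HET replicate 1 (-1.35, adjusted p = 0.128), Brn3a HET replicate 2 (-1.41, adjusted p = 0.113) or Brn3b HET replicate 1 (-1.09, adjusted p = 0.12). Flrt3 was not called without Brn3a HET replicate 1 (adjusted p = 0.182), Brn3a HET replicate 2 (adjusted p = 0.204), Brn3b HET replicate 1 (adjusted p = 0.221) or Brn3b HET replicate 2 (adjusted p = 0.0776), nor with all 18 retinal libraries in the fit (adjusted p = 0.0601). Over all genes 3.85% were called (2.03% higher, 1.82% lower). Of 10 partners, Robo1 (39.3 against 21.2 CPM; 0.89 ± 0.20), Unc5a (28.3 against 12.8 CPM; 1.15 ± 0.26) and Unc5b (9.33 against 3.41 CPM; 1.45 ± 0.34) were higher in Brn3b HET, with adjusted p of 0.0443, 0.0452 and 0.0481. Each lost its call without any 1 of the 4 libraries (adjusted p from 0.0751 to 0.319). Amacrine markers were 4 of 8 higher in Brn3b HET (493 to 533 against 169 to 182 CPM in sum), and ganglion cell markers 0 of 10 called with a median of -0.999 (3143 to 4537 against 7520 to 7940 CPM). Photoreceptor markers were 1 of 6 higher in Brn3b HET (2049 to 2730 against 723 to 735 CPM). The part of these lists was not tested.

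Tenm1 was called higher in Brn3b KO than in Brn3b HET AP-positive cells at E15, and no member passed the test in Brn3b KO or Brn3a KO cells at P3. Tenm1 was at 70.7 and 68.0 CPM in the E15 Brn3b KO libraries and at 29.6 and 18.6 CPM in Brn3b HET. The groups did not overlap, and the KO libraries held the highest Tenm1 values of the 18 retinal libraries. The difference was 1.52 ± 0.26 (2.88-fold, adjusted p = 0.0194), and Tenm1 was the 1 of 7 members called where 1.85% of all genes were (0.666% higher, 1.18% lower). Leaving out a library ended the call for Brn3b HET replicate 2 (1.24, adjusted p = 0.0654), KO replicate 1 (1.50, adjusted p = 0.0716) and KO replicate 2 (1.56, adjusted p = 0.0949), but not for HET replicate 1. Fitting only the 2 groups gave 1.54 with adjusted p = 0.173.

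Tenm3 was also above HET at E15, at 539 and 537 against 385 and 311 CPM (0.63 ± 0.24, adjusted p = 0.315), as was Tenm4, at 278 and 273 against 235 and 215 CPM (0.29 ± 0.24, adjusted p = 0.733). Neither overlapped and neither passed. Tenm2 (0.08 ± 0.27, adjusted p = 0.959), Flrt1 (-0.38 ± 0.44, adjusted p = 0.829), Flrt2 (-0.02 ± 0.22, adjusted p = 1) and Flrt3 (0.23 ± 0.15, adjusted p = 0.658) overlapped between KO and HET. None of the 10 partners was called by edgeR, with 2 at an unadjusted p under 0.05; Unc5d, at 4.82 and 5.99 against 14.2 and 9.89 CPM, came nearest (-1.16, adjusted p = 0.0521). Ganglion cell markers were 4 of 10 lower (3291 to 4153 against 3869 to 7093 CPM in sum) and amacrine markers 2 of 8 higher (446 to 520 against 150 to 155 CPM), and their part was not tested.

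**Figure D3:**
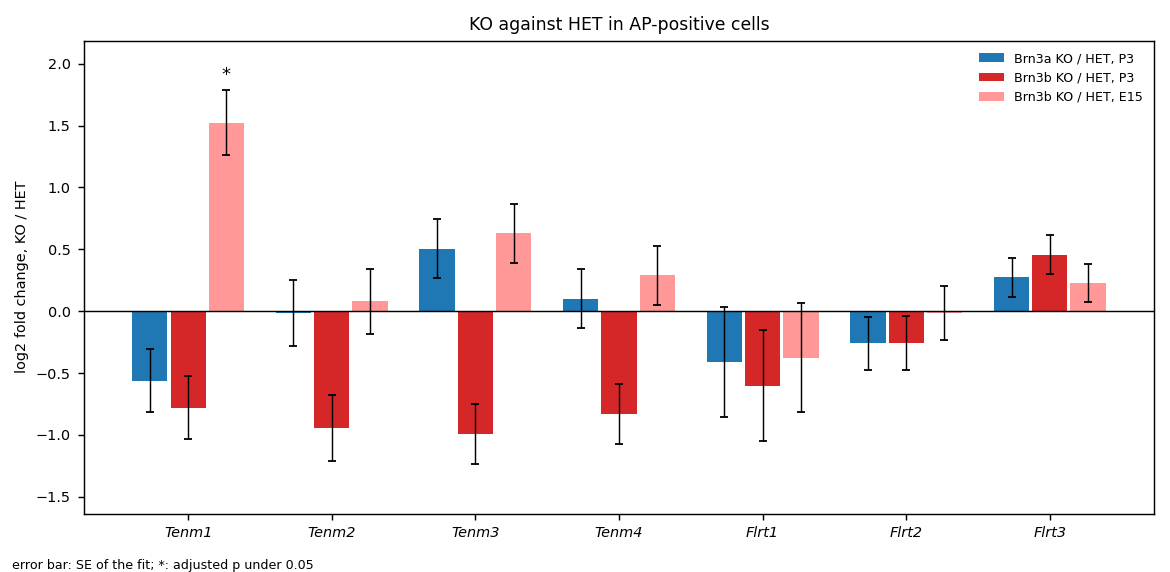
Log2 fold change (vertical axis, coloured bars) of each member in KO against HET AP-positive cells, for Brn3a at P3, Brn3b at P3 and Brn3b at E15; error bars are the standard error of the fit and the star marks an adjusted p under 0.05. For Brn3b the bars of the 4 teneurins point down at P3 (-0.78 to -0.99) and up at E15 (0.08 to 1.52), where Tenm1 alone has the star.

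At P3 all 4 teneurins were lower in both Brn3b KO libraries than in both Brn3b HET libraries, yet edgeR called 0 of 7 members where 3.41% of all genes were called (0.264% higher, 3.15% lower). The share of all genes without overlap is not given here. Teneurin pairs also had Pearson's r of log2 CPM from 0.754 to 0.954 over the retinal libraries, so these are not 4 separate observations. Tenm3 was at 76.8 and 90.2 CPM in KO and 129 and 206 in HET (-0.99 ± 0.24, adjusted p = 0.0565). Tenm2 was at 25.3 and 32.6 against 42.3 and 69.9 CPM (-0.95 ± 0.27, adjusted p = 0.0907), and Tenm4 at 65.5 and 83.0 against 103 and 163 CPM (-0.83 ± 0.24, adjusted p = 0.0974). Tenm1 was at 19.7 and 19.9 against 27.0 and 41.3 CPM (-0.78 ± 0.26, adjusted p = 0.137). The KO libraries overlapped the unbound P3 libraries in Tenm2, Tenm3 and Tenm4, and lay above them in Tenm1. Flrt3 lay the other way, at 21.3 and 23.2 against 16.6 and 16.1 CPM (0.46 ± 0.16, adjusted p = 0.149), while Flrt1 and Flrt2 overlapped (-0.60, adjusted p = 0.499; -0.26, adjusted p = 0.561).

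With edgeR 5 of the 7 had an unadjusted p under 0.05, and DESeq2 called 4: Tenm3 (adjusted p = 0.00349), Tenm2 (0.0172) and Tenm4 (0.0218) lower and Flrt3 (0.0441) higher. The shares of all genes at these cuts are not given here, so neither count is set against a background. In data simulated for this comparison edgeR recovered 31.7% of genes changed 2-fold, so a missing call does not show that levels were alike. Without Brn3b HET replicate 1, edgeR called Tenm3 (-1.29, adjusted p = 0.0248), Tenm2 (-1.27, adjusted p = 0.0383) and Tenm4 (-1.13, adjusted p = 0.0388). Of the partners Unc5d fell by 1.46 (9.12 and 8.38 against 19.7 and 28.9 CPM; adjusted p = 0.0215), and was not called without HET replicate 2 (-1.16, adjusted p = 0.194), KO replicate 1 (adjusted p = 0.125) or KO replicate 2 (adjusted p = 0.127). In the same contrast ganglion cell markers were 9 of 10 lower (1044 to 1383 against 3143 to 4537 CPM in sum), microglial markers 7 of 10 lower (1015 to 1324 against 2197 to 2657 CPM) and amacrine markers 1 of 8 higher (860 to 1054 against 493 to 533 CPM). Progenitor markers were 0 of 10 called (813 to 1995 against 544 to 798 CPM). The part of these lists in the teneurin values was not tested.

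Brn3a KO left every member uncalled at P3, 0 of 7 beside 0.018% of all genes (0.012% higher, 0.006% lower), with 0 at an unadjusted p under 0.05 and 0 by DESeq2. Tenm1 was at 32.5 and 30.4 CPM in KO against 53.3 and 40.2 in HET (-0.56 ± 0.26), and Tenm3 at 317 and 217 against 194 and 186 CPM (0.51 ± 0.24). Flrt2 (68.7 and 64.9 against 81.9 and 79.2 CPM; -0.26 ± 0.22) and Flrt3 (10.8 and 11.5 against 9.83 and 8.72 CPM; 0.27 ± 0.16) likewise did not overlap. All 7 had an adjusted p of 1. Tenm2 (118 and 98.6 against 125 and 95.4 CPM), Tenm4 (235 and 169 against 214 and 167 CPM) and Flrt1 (13.9 and 7.43 against 16.8 and 11.8 CPM) overlapped. None of the 10 partners was called by edgeR, and 0 had an unadjusted p under 0.05.

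The Brn3b KO difference of Tenm1 at P3 minus that at E15 was -2.30 ± 0.37 (adjusted p = 0.0494), the 1 of 7 members called where 0.192% of all genes were (0.006% higher, 0.186% lower). It was not called without HET E15 replicate 2 (-2.02, adjusted p = 0.11), HET P3 replicate 2 (-1.97, adjusted p = 0.188), KO E15 replicate 1 (adjusted p = 0.141), KO E15 replicate 2 (adjusted p = 0.11), KO P3 replicate 1 (adjusted p = 0.147) or KO P3 replicate 2 (adjusted p = 0.175), and its size ranged from -1.97 to -2.66 over 13 alternatives. Tenm3 had -1.62 ± 0.34 (adjusted p = 0.12; 0.00128 in DESeq2), Tenm4 -1.12 ± 0.34 (adjusted p = 0.299) and Tenm2 -1.03 ± 0.38 (adjusted p = 0.363). All 3 FLRT genes lay between -0.24 and 0.23. The KO effect of Brn3b minus that of Brn3a at P3 was called for 0 of 7 members by edgeR (0.012% of all genes, 0.006% in each direction), with 3 at an unadjusted p under 0.05. Its largest member value was that of Tenm3 (-1.50 ± 0.34, adjusted p = 0.168), which DESeq2 called (adjusted p = 0.0053), the 1 member it called.

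**Figure D4:**
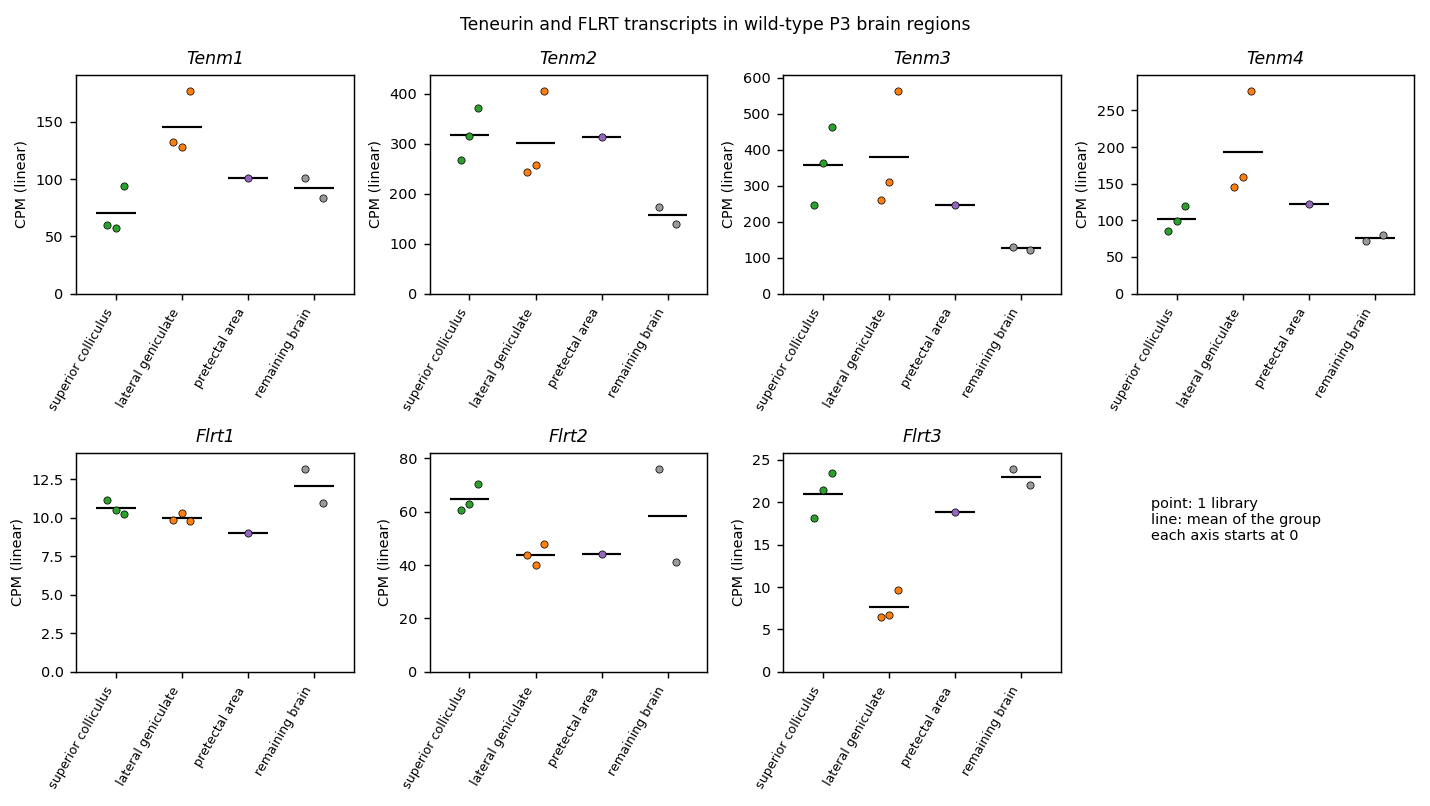
CPM (vertical axis, linear) of each member in the 9 P3 brain libraries, 1 panel a gene; points are libraries and short lines are region means. By region mean, Tenm1 and Tenm4 are highest in LGN, Tenm2 and Tenm3 lowest in the remaining brain, and Flrt3 lowest in LGN.

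In the retinal targets, SC held more Flrt3 and less Tenm1 and Tenm4 than LGN, while the Tenm2 and Tenm3 levels of both regions overlapped. Regional markers followed the dissection: tectal markers summed to 258 to 281 CPM in SC and 15.3 to 24.9 in LGN, and thalamic markers to 331 to 496 CPM in SC and 1134 to 1236 in LGN. Telencephalic markers summed to 493 to 520 CPM in the remaining brain, and to 121 to 129 CPM in SC. Between SC and LGN 3 of 7 members were called, where 10.2% of all genes were (4.41% higher, 5.78% lower). Flrt3 was higher in SC (18.1, 21.4 and 23.5 CPM) than in LGN (6.52, 6.71 and 9.61 CPM), without overlap, by 1.46 ± 0.19 (2.75-fold, adjusted p = 0.00127), and was called in 12 of 12 alternatives. Tenm1 was lower in SC, at 59.6, 57.5 and 93.7 CPM against 132, 128 and 177 in LGN (-1.05 ± 0.20, adjusted p = 0.00995). So was Tenm4, at 85.8, 99.3 and 120 against 145, 159 and 277 CPM (-0.93 ± 0.23, adjusted p = 0.0334). Neither overlapped.

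Tenm1 was not called without SC replicate 2 (-0.93, adjusted p = 0.0527), nor Tenm4 without SC replicate 1 (-0.82, adjusted p = 0.095) or SC replicate 2 (adjusted p = 0.127). Tenm2 was at 267, 316 and 372 CPM in SC and 243, 257 and 406 in LGN, and Tenm3 at 247, 364 and 463 in SC and 261, 310 and 564 in LGN. Both overlapped widely (0.08 ± 0.20, adjusted p = 0.869; -0.08 ± 0.29, adjusted p = 0.903). The libraries titled M3 (replicate 3) were the highest of their region for all 4 teneurins in SC and in LGN. The labels do not say whether a number marks 1 animal, so the fit is unpaired; with the number as a block the same 3 members were called. The long genes also took more of the counts there (6.26% and 6.29%) than in the other brain libraries (5.32% to 5.75%), and the part of this in the teneurin values was not tested. Flrt2 (60.7, 62.7 and 70.3 CPM in SC; 43.7, 40.0 and 48.1 in LGN) did not overlap and did not pass (0.56 ± 0.20, adjusted p = 0.113). Flrt1 was at 9.8 to 11.1 CPM in both regions.

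Among partners, the latrophilin Lphn2 was higher in SC (258, 251 and 269 CPM) than in LGN (139, 145 and 114 CPM) by 0.97 ± 0.16 (adjusted p = 0.00406). Unc5d was higher in SC too, at 68.7, 74.0 and 90.3 CPM against 28.2, 36.6 and 50.8, by 1.01 ± 0.20 (adjusted p = 0.0102). Neither overlapped. Unc5a was lower in SC (22.3, 10.8 and 12.7 against 32.1, 28.9 and 28.0 CPM; -0.96 ± 0.26, adjusted p = 0.0479). It lost its call without LGN replicates 1, 2 or 3 (adjusted p = 0.125, 0.104 and 0.0961) or SC replicates 2 or 3 (adjusted p = 0.173 and 0.134). The other 7 partners were not called, where 10.2% of all genes were (4.41% higher, 5.78% lower).

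Against the remaining brain, SC was higher in Tenm2 and Tenm3 (2 of 7 members, where 6.94% of all genes were called, 3.19% higher and 3.75% lower), and LGN was higher in Tenm2, Tenm3 and Tenm4 and lower in Flrt3 (4 of 7, where 10.9% were, 5.76% higher and 5.17% lower). Both contrasts use the same 2 remaining-brain libraries. Hindbrain and cerebellar markers summed to 79.6 CPM in 1 of these libraries and 250 CPM in the other, and the part of this difference was not tested. Tenm2 was at 174 and 139 CPM in the remaining brain, below all SC and LGN libraries (SC 1.03 ± 0.23, adjusted p = 0.0312; LGN 0.95 ± 0.23, adjusted p = 0.0305). Tenm3 was at 130 and 121 CPM, also below all (SC 1.51 ± 0.34, adjusted p = 0.0302; LGN 1.59 ± 0.35, adjusted p = 0.0175). Tenm4, at 71.7 and 80.6 CPM, lay below SC as well, where the difference did not pass (0.42 ± 0.26, adjusted p = 0.411), and below LGN (1.35 ± 0.27, adjusted p = 0.0121). Flrt3 was at 23.9 and 22.0 CPM, 3.01-fold above LGN (-1.59 ± 0.21, adjusted p = 0.00125; called in 11 of 11 alternatives) and level with SC (-0.13 ± 0.20, adjusted p = 0.781). Tenm1, at 101 and 83.8 CPM, overlapped SC and lay below LGN (0.66 ± 0.23, adjusted p = 0.097; 0.0319 in DESeq2).

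The teneurin calls against the remaining brain all depended on having both of its libraries. Without remaining-brain replicate 1 or 2, the LGN differences had adjusted p of 0.0578 and 0.17 for Tenm2, 0.0684 and 0.111 for Tenm3, and 0.067 and 0.065 for Tenm4. For SC the same omissions gave 0.0571 and 0.197 for Tenm2 and 0.0922 and 0.173 for Tenm3, and leaving out SC replicate 2 or 3 gave 0.0916 and 0.0855 for Tenm2 and 0.0897 and 0.0804 for Tenm3. Flrt2 differed between the remaining-brain libraries (75.9 and 41.0 CPM). It was called higher in SC without replicate 1 (0.65, adjusted p = 0.0474) and lower in LGN without replicate 2 (-0.79, adjusted p = 0.0177). Partners called for SC were Lphn2 (0.81 ± 0.18, adjusted p = 0.0265) higher and Unc5a (-1.18) and Unc5b (-1.19) lower. For LGN none of 10 was called by edgeR, with 4 at an unadjusted p under 0.05; DESeq2 counts are not given for partners. Lphn2 was lost without remaining-brain replicate 2 (0.53, adjusted p = 0.118) or SC replicates 1, 2 or 3 (adjusted p = 0.0503, 0.0752 and 0.0707), Unc5a without remaining-brain replicate 1 (adjusted p = 0.16), replicate 2 (adjusted p = 0.06) or SC replicates 2 or 3 (0.124 and 0.118), and Unc5b without remaining-brain replicate 1 (0.0512), replicate 2 (0.0689) or SC replicates 2 or 3 (0.05 and 0.0503).

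Levels between genes were compared as TPM, counts divided by transcript length and scaled to a common total per library. Tenm3 was the most abundant member by TPM in all 8 retinal groups, with means from 17.7 TPM in unbound P3 cells to 109 TPM in E15 Brn3b KO cells, and in no group did its libraries overlap those of the next member. Tenm4 came next in every AP-positive group (11.6 to 36.9 TPM), but was clear of the member after it only in the 2 groups at E15. It overlapped Tenm2 in Brn3a HET, Brn3a KO and Brn3b HET cells at P3, and in Brn3b KO P3 cells it overlapped Flrt3 (11.6 and 11.2 TPM) and changed places with it when only protein-coding transcripts were summed. Flrt2 was at 21.9 TPM in Brn3a HET and 8.66 TPM in Brn3b HET cells at P3, overlapping Tenm2 in both (24.0 and 12.2 TPM). Flrt3 followed Tenm4 at E15 (24.4 TPM in HET, 29.0 in KO) and was in last place in Brn3a HET cells (4.48 TPM), level with Flrt1 (4.51 TPM). Flrt1 was last or next to last in all 8 retinal groups.

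In the brain Tenm3 and Tenm2 led. Their means were 103 and 82.8 TPM in LGN and 97.2 and 85.3 TPM in SC, overlapping in both. In the single pretectal library Tenm2 stood first (81.1 against 58.5 TPM). In the remaining brain Tenm2 (43.5 TPM) and Tenm3 (36.2 TPM) overlapped, and their order turned when only protein-coding transcripts were summed. Flrt1 was last in all 4 regions (3.00 to 4.50 TPM), overlapping Flrt3 in LGN (4.03 against 3.52 TPM).

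**Figure D5:**
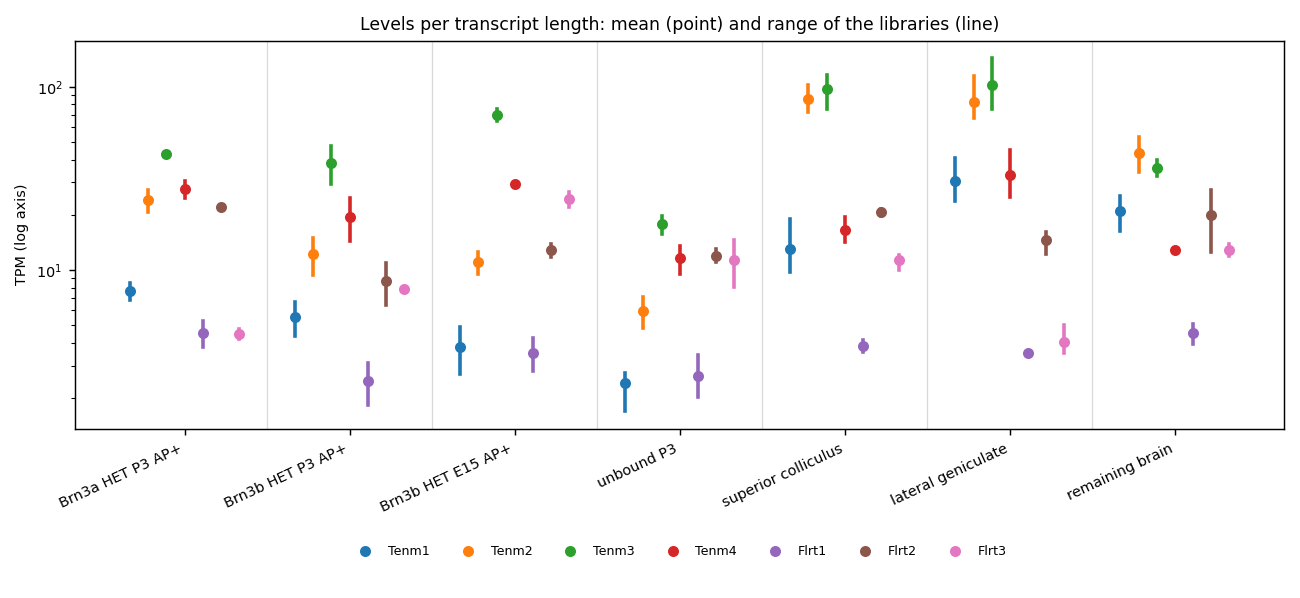
TPM (logarithmic vertical axis) of the 7 members in 4 retinal groups (AP-positive Brn3a HET P3, Brn3b HET P3 and Brn3b HET E15 cells, and unbound P3 cells) and 3 brain regions (SC, LGN and remaining brain); points are means and lines the range of the libraries. Tenm3 is at the top in these 4 retinal groups, and Tenm2 and Tenm3 lead in the 3 regions.

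The order of groups by mean CPM differed between members. Tenm1 ran from E15 Brn3b KO cells (69.3 ± 1.92 CPM, SD, n = 2) over Brn3a HET (46.8 ± 9.31), Brn3b HET P3 (34.1 ± 10.1), Brn3a KO (31.5 ± 1.47), E15 Brn3b HET (24.1 ± 7.82), unbound E15 (21.6 ± 9.68) and Brn3b KO P3 (19.8 ± 0.133) to unbound P3 cells (12.8 ± 2.10, SD, n = 4). The first and the last stood clear of their neighbours, and Brn3a KO stood clear of E15 Brn3b HET; all other neighbours overlapped. Tenm2 was highest in both Brn3a groups (110 ± 21.2 in HET and 108 ± 13.9 in KO), which overlapped each other and lay above every other group, and all neighbours further down overlapped. Tenm3 and Tenm4 shared their first places, E15 Brn3b KO (538 ± 1.53 and 276 ± 3.54 CPM) followed by E15 Brn3b HET (348 ± 52.3 and 225 ± 14.3), with a gap between them. Tenm3 ended with Brn3b KO P3 (83.5 ± 9.46) and unbound P3 cells (71.2 ± 10.6), which overlapped, and Tenm4 with the same groups in the other order (74.3 ± 12.4 and 75.4 ± 10.5), also overlapping.

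Flrt2 was highest in Brn3a HET (80.5 ± 1.85) and next in Brn3a KO (66.8 ± 2.71), with a gap before the E15 groups (53.8 ± 8.08 and 53.3 ± 4.71), which overlapped. It was lowest in Brn3b HET P3 (31.4 ± 9.74) and Brn3b KO P3 (26.2 ± 5.04), which overlapped. Flrt3 had E15 Brn3b KO and HET on top (66.7 ± 5.90 and 57.0 ± 8.57, overlapping) and Brn3a KO and HET at the bottom (11.1 ± 0.456 and 9.27 ± 0.786, with a gap). Flrt1 ran from 14.3 ± 3.56 in Brn3a HET to 5.04 ± 2.57 CPM in Brn3b KO P3, and every neighbour overlapped.

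Across the 18 retinal libraries, the teneurins varied together, with Pearson's r of log2 CPM from 0.754 to 0.954 in 6 pairs, highest for Tenm3 and Tenm4. FLRT pairs had r from -0.133 to 0.788 and teneurin with FLRT pairs from -0.266 to 0.791. In the 9 brain libraries the teneurin pairs spanned 0.195 to 0.951, highest for Tenm2 and Tenm3, FLRT pairs 0.404 to 0.637 and mixed pairs -0.711 to 0.135. Points share library, depth and cell composition, and these values are descriptions. Among 10216 retinal genes, those most like Tenm3 were Spns2 (0.979), Nfasc (0.979) and Tubb3 (0.972), and Nfasc also led for Tenm4 (0.965). Astn1 (0.973) was most like Tenm2, March4 (0.937) most like Tenm1, Ncam1 (0.921) most like Flrt1, Nrcam (0.911) most like Flrt2 and Tmem2 (0.974) most like Flrt3. Among 9888 brain genes, Erc2 (0.985) was most like Tenm1, Grm3 (0.986) most like Tenm2, Clptm1 (0.979) most like Tenm3 and Tmem38a (0.967) most like Tenm4. Cyb561d1 (0.938), Atl3 (0.948) and Plcb1 (0.987) were most like Flrt1, Flrt2 and Flrt3.

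Tenm3 transcripts were examined because its start region holds the motif shown in capitals. The transcript Tenm3-201 starts 49 bases from the RefSeq start behind the printed stretch. It was at 6.94 and 9.72 TPM in Brn3b HET and at 0.03 and 2.64 TPM in Brn3b KO cells at P3, and at 25.9 and 14.8 TPM in HET against 41.6 and 45.1 TPM in KO at E15. The KO libraries were below HET at P3 and above it at E15, without overlap at either age, in the same directions as the gene sum. That sum includes this transcript, and edgeR called it at neither age. At P3 Tenm3-005 (15.3 and 27.7 TPM in HET against 1.54 and 12.1 TPM in KO) did not overlap either, while Tenm3-001 (5.16 and 9.80 against 14.2 and 5.84 TPM) did. Both were above HET in KO at E15, again without overlap. Tenm3-005 was at 30.3 and 25.8 TPM in HET against 39.5 and 36.2 TPM in KO. Tenm3-001 was at 15.7 and 17.99 against 22.8 and 20.7 TPM. Tenm3-002 and Tenm3-006 overlapped at E15. At E15 Tenm3-201, Tenm3-005 and Tenm3-001 were all above HET in KO, and the part of the motif was not tested. Estimates of single transcripts differed widely between replicates, as the 1.54 and 12.1 TPM of Tenm3-005 in KO at P3 show, and they were not tested.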

How the data were processed

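The deposited table holds estimated counts per Ensembl transcript, not normalized between libraries; eXpress 1.3.1, Bowtie2 2.2.1, Trimmomatic 0.32 and build GRCm38.p3 are named, without their roles, per the submitters' processing notes. Per the labels' protocols retinal libraries were read single-end at 76 bases and brain libraries paired-end at 125 bases. GC percent per transcript, per the file headers, entered no fit. Estimated counts were summed per gene and rounded. Libraries were grouped by title, since source names of many libraries name another gene or age.

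Tests used edgeR 4.0.16 in R 4.3.3: TMM scaling, a count filter (filterByExpr, minimum 10), the quasi-likelihood test and Benjamini-Hochberg adjustment over all genes. One fit took the 18 retinal libraries (16954 genes; AP-positive against unbound), another the 12 AP-positive ones (16673 genes, 6 residual degrees of freedom), the last the 9 brain libraries (15288 genes, 5 residual degrees of freedom; the single pretectal library is given by value). The standard error is the log2 fold change over the square root of F. CPM used TMM-scaled library sizes. TPM divided each transcript's counts by its full length. Correlations used log2 CPM with a prior count of 2 over genes averaging 10 CPM or more. Alternatives were DESeq2 1.42.0, upper-quartile scaling, no filter, a replicate block, fewer or more groups in the fit, and leaving out each library. The share of all genes is not given for members or partners counted at an unadjusted p, in an alternative, or without overlap between groups.

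All 7 members are named in every comparison, partners and markers come from fixed lists, and the genes most like each member are the top ones by correlation. The members, lists and tests were chosen with earlier results of these data known.

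Correlations of log2 CPM between replicates across genes were 0.962 to 0.981. In simulated data for Brn3b KO against HET at P3 (16285 genes), the share of changed genes that edgeR recovered was 3% at 1.5-fold, 31.7% at 2-fold and 75.8% at 4-fold, with 1 unchanged gene called. For Brn3b HET against unbound at P3 (16502 genes) these shares were 4.5%, 50.8% and 71.9%, with 3 unchanged genes called, and for SC against LGN (14919 genes) 27.3%, 67.2% and 96.9%, with 9.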

Additional observations from a re-analysis of the deposited data

Results flagged for a closer look

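The Tenm1 difference between Brn3b KO and HET libraries passed, narrowly, the test of a difference between ages. P3 minus E15 was -2.303 on the log2 scale (edgeR, adjusted p = 0.0494). Tenm1 was at 19.7 and 19.9 CPM in KO and 27.0 and 41.3 CPM in HET at P3. It was at 70.7 and 68.0 CPM in KO and 29.6 and 18.6 CPM in HET at E15. The call was lost in 8 of 13 alternatives: upper-quartile scaling (adjusted p = 0.0513), the replicate block (0.0776) and the omission of any 1 of 6 of the 8 libraries (0.11 to 0.188). The part of the ganglion cell and amacrine markers, which also differed between KO and HET, was not tested.

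The single pretectal library enters no comparison, and 3 members stood above both remaining-brain libraries in it: Tenm2 at 313.202 CPM (remaining brain 174 and 139), Tenm3 at 247.365 CPM (130 and 121) and Tenm4 at 122.284 CPM (71.7 and 80.6). There is no replicate of this region, and no test was made. Its thalamic markers summed to 1306 CPM, its tectal ones to 142 CPM and its telencephalic ones to 37.2 CPM.

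In the 4 unbound P3 libraries, the one group of 4 to 10, each of the 7 members was checked for a library far from the others, and none was found.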

How the results depend on the processing

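Among called member results, 285 alternative values kept their call and direction and 65 lost the call, with 0 reversed; among results not called, 640 stayed so, 37 were called and 44 changed sign. Partners called kept the call in 285 values and lost it in 60. Where an omission left 1 library in a group, that library is assumed to vary like the other groups.

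Counts of members called that moved by over 1.5 times were these, and the cause was not tested. DESeq2 called 4 for Brn3b HET against unbound at E15 (2 in edgeR), 4 for Brn3b KO at P3 (0), 2 for the age interaction (1) and 1 for the gene interaction (0). With no filter the counts were 1 for unbound P3 against E15 (3), 2 for Brn3b KO at P3 and 2 for the age interaction. Only the compared groups in the fit gave 1 for Brn3b HET against unbound at E15, 1 for unbound P3 against E15, 0 for Brn3b KO at E15 (1) and 2 for Brn3b HET P3 against E15 (4). The age interaction had 0 with upper-quartile scaling (Tenm1 adjusted p = 0.0513) and 0 with the replicate block (adjusted p = 0.0776). All 18 retinal libraries gave 1 for Brn3b against Brn3a HET (2). Smaller moves each added 1 member: Flrt1 for Brn3a HET against unbound (7 against 6) with DESeq2 and with only the compared groups, Tenm2 for Brn3b against Brn3a HET (3 against 2) with DESeq2, no filter and only the compared groups, Flrt3 for Brn3b HET against unbound at E15 (3 against 2) with upper-quartile scaling (adjusted p = 0.0407) and no filter (0.0439), Tenm1 for LGN against remaining brain (5 against 4) with DESeq2, and Flrt2 for SC against LGN (4 against 3) with only the compared groups (0.0124). Sign changes near 0 were Tenm2 in Brn3a KO (0.004) and Flrt2 in the gene interaction (-0.006) with upper-quartile scaling, Flrt2 in Brn3b KO at E15 with only 2 groups (0.001), and Tenm3 in SC against LGN without both M3 libraries (0.087, chosen after seeing the data).

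Replicate numbers share only a label in the retina. Deviations of same-numbered libraries correlated at -0.107 to 0.17 between AP-positive groups and at 0.2, 0.071 and 0.218 for SC and LGN, not all over 0.1. With the replicate block, 3 members were called for Brn3b HET P3 against E15 (Tenm4 adjusted p = 0.0566), also with crossed numbers (over all genes 4226 crossed, 4642 with the block, 4809 without), 5 for LGN against remaining brain and 3 for SC against remaining brain (Tenm1 -0.61, adjusted p = 0.0148, and LGN 0.46, adjusted p = 0.027, were added), and 2 for unbound P3 against E15 (Flrt3 adjusted p = 0.0695).

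Leaving out 1 library gave these ranges of members called: 1 to 4 for Brn3b HET against unbound at E15, 0 to 3 for unbound P3 against E15, 0 to 3 for Brn3b KO at P3, 0 to 1 at E15, 0 to 1 for Brn3b against Brn3a HET, 1 to 4 for P3 against E15, 0 to 1 for the age interaction, 1 to 3 for SC against LGN, 0 to 2 for SC and 1 to 4 for LGN against remaining brain. Values not called that changed sign ranged as follows. Against unbound, Flrt1 in Brn3b HET at P3 went from -0.446 to 0.28 and Tenm1 at E15 from -0.23 to 0.724. In unbound P3 against E15, Flrt1 went from -0.479 to 0.29, Flrt2 from -0.304 to 0.022, Tenm2 from -0.666 to 0.256 and Tenm4 from -0.47 to 0.083. In Brn3a KO, Tenm2 went from -0.222 to 0.177 and Tenm4 from -0.191 to 0.335. In Brn3b KO, Flrt2 went from -0.543 to 0.106 at P3 and -0.148 to 0.178 at E15, and Tenm2 from -0.138 to 0.384 at E15. Tenm3 went from -0.585 to 0.094 in Brn3b against Brn3a HET, and Tenm2 from -0.547 to 0.183 in P3 against E15. In the age interaction Flrt1 went from -0.866 to 0.208 and Flrt2 from -0.535 to 0.113, and in the gene interaction Flrt1 from -0.801 to 0.364, Flrt2 from -0.263 to 0.386 and Tenm1 from -0.471 to 0.145. In SC against LGN, Tenm2 went from -0.073 to 0.349 and Tenm3 from -0.309 to 0.325. Flrt2 went from -0.234 to 0.654 for SC and from -0.792 to 0.097 for LGN against remaining brain.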
